A study of Macaca mulatta with 12 samples.

Results

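The comparison described here set the lateral geniculate nucleus (LGN) ipsilateral to one eye of monocularly deprived rhesus macaques against the LGN of the contralateral hemisphere, across the genes of an expression array. Its members were chosen from the sample titles alone: 6 arrays titled as ipsilateral LGN and 6 titled as contralateral LGN, which are 12 of the 12 arrays in the series. Each array held total RNA from 1 of the 6 LGN layers of 1 hemisphere. On the ipsilateral side layers 2, 3 and 5 were labelled deprived and layers 1, 4 and 6 non-deprived, and on the contralateral side layers 1, 4 and 6 were deprived and layers 2, 3 and 5 non-deprived. Deprivation and cell class (layers 1 and 2 taken as magnocellular, layers 3 to 6 as parvocellular) were therefore balanced over the hemispheres, and both were terms of every fit unless stated otherwise. The labels do not name the eye to which ipsilateral refers, the way in which it was deprived, the age of the animals, their number, or which layers came from the same one. The spread is thus between layers and may be partly technical, and any layers taken from 1 animal make the p-values smaller than they would be over animals.

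The LGN is the thalamic station that passes retinal signals to the primary visual cortex. Its layers are each driven by a single eye, and nasal retina projects across the midline while temporal retina does not, so the LGN of each hemisphere receives the contralateral eye in some layers and the ipsilateral eye in the others. Relay neurons express the vesicular glutamate transporter SLC17A6 and the transcription factor TCF7L2, and a smaller number of neurons release GABA. With 1 eye deprived, both nuclei hold layers of either kind, and the side of the brain alone carries no deprivation once the layers are balanced.

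Probe sets of 1 gene passed the test as higher ipsilaterally, and probe sets of 10 genes passed as lower. The higher one was of CTBP2, a transcriptional corepressor whose locus also makes RIBEYE, a protein of synaptic ribbons. The lower ones were of ATP6V0B, a membrane subunit of the vacuolar proton pump that acidifies vesicles and lysosomes; ATP5PB, a stalk subunit of mitochondrial ATP synthase; PFKP, a phosphofructokinase of glycolysis; PSMD2, a subunit of the proteasome's regulatory particle; KLC1, a light chain of the axonal transport motor kinesin; RAN, the GTPase of nuclear transport; ENSA, an inhibitor of a protein phosphatase; TRO, a cell adhesion protein; TMEM14B, a small membrane protein; and SPTLC2, a subunit of the first enzyme of sphingolipid synthesis, whose other tested probe sets had the opposite sign. They were 12 probe sets of 11105 tested (0.108% of those tested; 0.009% higher and 0.0991% lower) by limma with Benjamini-Hochberg adjustment at a threshold of adjusted p under 0.05. Of the 12, 9 had an adjusted p between 0.04 and 0.05, and the first probe set outside the threshold was that of the kinase JAK1 (adjusted p = 0.0568, limma). An unadjusted p under 0.05 was reached by 2234 probe sets (20.1%), 1442 of them higher ipsilaterally and 792 lower. None of the 12 passed with the GAPDH or the ACTB 3'/5' ratio (the intensity of a control's 3' probes over that of its 5' probes) as a covariate, or without contralateral layer 1, while 847 probe sets passed without ipsilateral layer 6.

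CTBP2 had scaled intensities of 1090 to 2660 ipsilaterally (median 2290) and 622 to 1160 contralaterally (median 914, n = 6 arrays each) on the probe set 201218_at. Ipsilateral layer 1, at 1090, was the one ipsilateral array within the contralateral range, and the other ipsilateral layers lay between 2260 and 2660. The change was 1.28 ± 0.20 on the log2 scale (ipsilateral minus contralateral, ± SE), or 2.43-fold, with the same sign in 6 of 6 layers (adjusted p = 0.0262, limma). It remained at 1.28 ± 0.21 without ipsilateral layer 6 (adjusted p = 0.0125) and at 1.24 ± 0.26 with the GAPDH ratio as a covariate, where it did not pass (adjusted p = 0.568). With quantile normalization it was 1.14 and did not pass either (adjusted p = 0.0859).

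The other probe sets of CTBP2 did not share this difference. The 3 others that were tested had log2 changes of 0.25 ± 0.14 (201220_x_at, adjusted p = 0.323), 0.22 ± 0.15 (210554_s_at) and 0.21 ± 0.16 (210835_s_at), and the 2 below the filter had 0.04 (201219_at) and -0.27 (215377_at). After centring each array on its median, the 3 tested ones turned to -0.07, -0.10 and -0.10, while 201218_at kept its sign at 0.96. On 201220_x_at the ipsilateral arrays lay between 3450 and 4260 and the contralateral ones between 2880 and 3800, so the groups overlapped. Which CTBP2 or RIBEYE transcripts each probe set detects was not given in the sources used here. Its paralog CTBP1 had changes of 0.19, 0.18 and -0.14 on its 3 probe sets, none of which passed, and the first 2 were negative (-0.13 and -0.14) after centring.

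**Figure D1:**
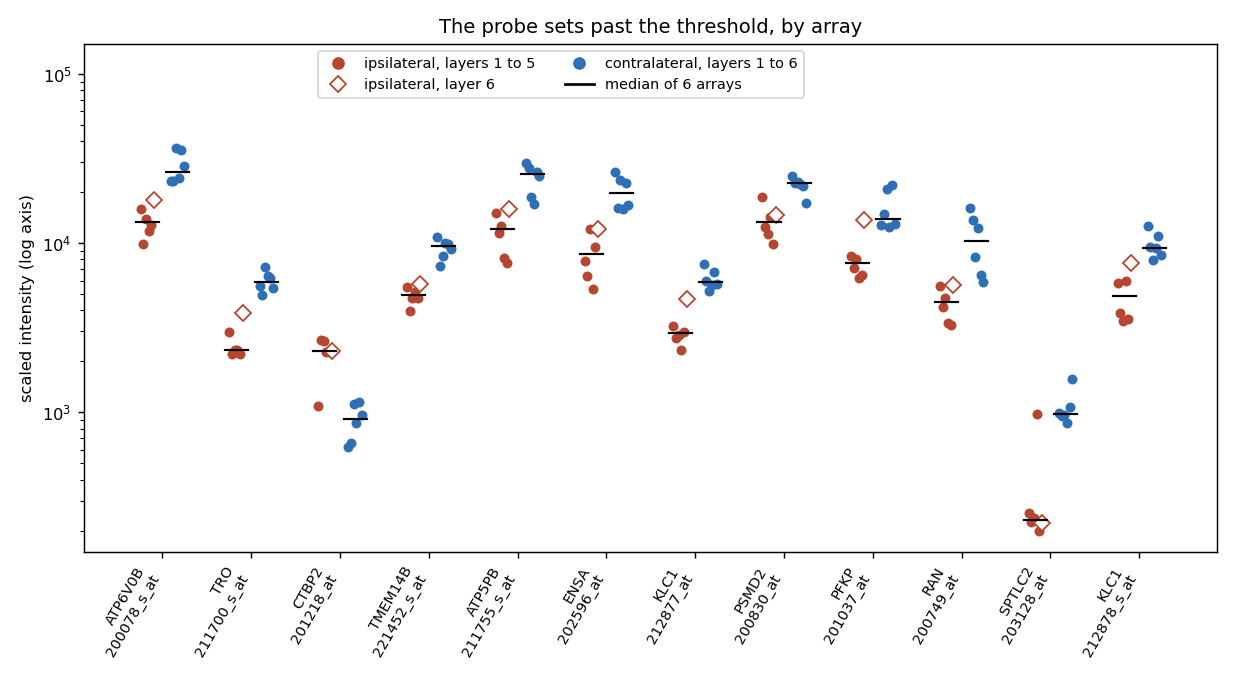
Scaled intensity on a log axis of the 12 probe sets that passed, 1 point per array, with ipsilateral layers 1 to 5 as filled red points, ipsilateral layer 6 as an open diamond, contralateral layers as blue points and the median of 6 arrays as a line. Of the 12, 8 had groups that did not overlap, CTBP2 is the one probe set with higher ipsilateral values, and the lone high ipsilateral point of SPTLC2 is layer 4.

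Of the genes that fell, 3 act in proton pumping and energy supply. ATP6V0B lay between 9850 and 17900 ipsilaterally (median 13300) and between 23200 and 36300 contralaterally (median 26400). The groups did not overlap, and ipsilateral layer 6 was the highest of its group at 17900. The change was -1.06 ± 0.14 (log2), lower in 6 of 6 layers (adjusted p = 0.00784, limma), and -0.91 with quantile normalization (adjusted p = 0.0152). ATP5PB ran from 7570 to 15800 ipsilaterally (median 12100) and from 17000 to 29800 contralaterally (median 25600). Again no ipsilateral array reached the contralateral range, and the change was -1.06 ± 0.18 (adjusted p = 0.0493). PFKP lay between 6190 and 13600 ipsilaterally and between 12500 and 22000 contralaterally, with a change of -0.96 ± 0.18 (adjusted p = 0.0493). Only ipsilateral layer 6, at 13600, entered the contralateral range, and PFKP was lower in 5 of 6 layers.

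The proteasome subunit PSMD2 had intensities of 9890 to 18600 (median 13400) ipsilaterally and 17200 to 24900 (median 22500) contralaterally. The overlap came from contralateral layer 6, which at 17200 was the lowest of its group, and the change of -0.72 ± 0.13 was negative in 6 of 6 layers (adjusted p = 0.0493, limma). RAN lay between 3280 and 5630 ipsilaterally (median 4460) and between 5910 and 16200 contralaterally (median 10300), with a change of -1.16 ± 0.21 (adjusted p = 0.0493). Its second probe set was lower in 6 of 6 layers as well, by -0.78 ± 0.15, and did not pass (adjusted p = 0.0683). KLC1 passed on 2 probe sets, with changes of -0.99 ± 0.18 and -1.0 ± 0.19. On the first of these it lay between 2330 and 4660 ipsilaterally and between 5210 and 7550 contralaterally, with no overlap. Another, dimmer probe set of KLC1 had 0.49 ± 0.39.

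TRO lay between 2210 and 3840 ipsilaterally (median 2340) and between 4950 and 7250 contralaterally (median 5890). No array of either side reached the other, and the change was -1.19 ± 0.16 (adjusted p = 0.00784, limma). A second probe set of TRO had -0.91 ± 0.19 and did not pass (adjusted p = 0.0774), and another had 0.02. TMEM14B ran from 3970 to 5740 against 7270 to 10800, also without overlap, with a change of -0.90 ± 0.15 (adjusted p = 0.0444). ENSA ran from 5350 to 12200 against 15800 to 26400 on the probe set that passed (-1.22 ± 0.21, adjusted p = 0.0493). Its other probe sets had -0.03 and -0.44, so the fall of ENSA was seen on 1 of 3.

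SPTLC2 had the largest change of the 12, -1.86 ± 0.34 (adjusted p = 0.0493, limma), and it rested on a dim probe set. Of the ipsilateral arrays 5 lay between 200 and 253, layer 4 was at 973, and the contralateral arrays lay between 864 and 1570. Layer 4 was thus inside the contralateral range and was the one layer in which SPTLC2 was not lower ipsilaterally. The other 2 tested probe sets of SPTLC2 pointed the other way, with 0.68 ± 0.20 (adjusted p = 0.113) and 0.75 (adjusted p = 0.153), and both passed as higher without ipsilateral layer 6 (adjusted p = 0.0305 and 0.0315). With quantile normalization the first of these did not pass there (adjusted p = 0.111, limma). No direction can therefore be given for SPTLC2 as a gene.

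Of the 12 probe sets, 8 had groups that did not overlap, against 143 (1.29%) of all those tested. This follows partly from the choice, since the 12 were picked for their difference on these same arrays. In 9 of the 12 the ipsilateral array nearest the contralateral values was layer 6. With the GAPDH ratio in the fit all 12 kept their sign, at 60.4% to 102% of their change, and with the ACTB ratio at 70.5% to 131%. In both fits 0 probe sets passed by limma, with 612 and 1257 at an unadjusted p under 0.05. ATP5PB was the most reduced, to -0.64 with the GAPDH ratio. Without ipsilateral layer 6 all 12 passed, with changes of 91.9% to 114% of those over 12 arrays.

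**Figure D2:**
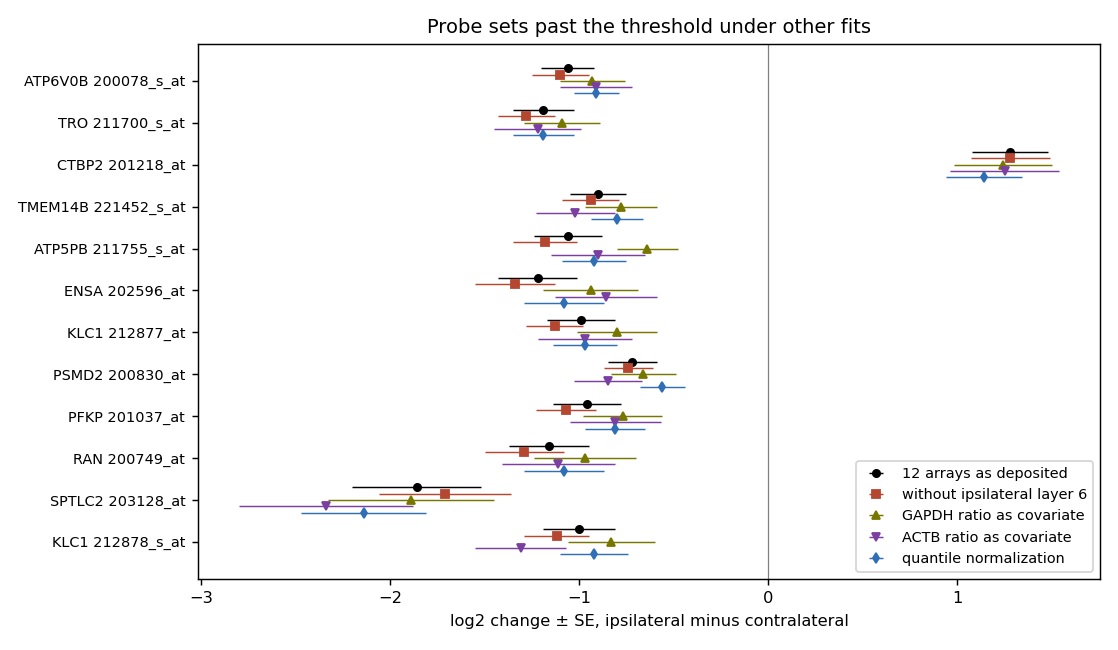
Log2 change (ipsilateral minus contralateral) with its standard error for the 12 probe sets that passed, fitted on the 12 arrays as deposited, without ipsilateral layer 6, with the GAPDH or ACTB 3'/5' ratio as a covariate, and after quantile normalization. All 5 estimates of each probe set lie on the same side of 0, and the error bars are wider with either ratio in the fit, except that of ATP5PB with the GAPDH ratio.

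The quality measures of the arrays differed by hemisphere as well, and ipsilateral layer 6 stood with the contralateral arrays. The GAPDH control probes had a ratio of 3' to 5' intensity, which is higher where RNA is degraded or copied incompletely, of 6.14 ± 3.37 ipsilaterally and 3.2 ± 0.722 contralaterally (SD, n = 6 each, two-sided exact permutation p = 0.0519, adjusted 0.0584 over 9 array measures). It was 11 in ipsilateral layer 5 and 9.38 in layer 2, against 2.88 in ipsilateral layer 6 and 2.87 in layer 3. For ACTB it was 39.7 ± 17 and 25.5 ± 7.9 (exact permutation p = 0.0931), with 31.9 in ipsilateral layer 6 and 20.3 in layer 3. By both 3'/5' ratios, ipsilateral layer 3 thus also lay within the contralateral range. The ratios of 3' to middle probes were higher ipsilaterally for both controls, 1.77 against 1.3 for GAPDH (exact permutation p = 0.00433, adjusted 0.0324) and 7.28 against 4.41 for ACTB (exact permutation p = 0.013, adjusted 0.0324). The intensities were also spread less widely on the ipsilateral arrays: the 90th percentile was 74.6 ± 29.1 times the 10th, against 114 ± 14.8 contralaterally (exact permutation p = 0.0195, adjusted 0.0324). This ratio was 120 in ipsilateral layer 6 and 75.3 in layer 3, where the contralateral arrays had 94.4 to 136.

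**Figure D3:**
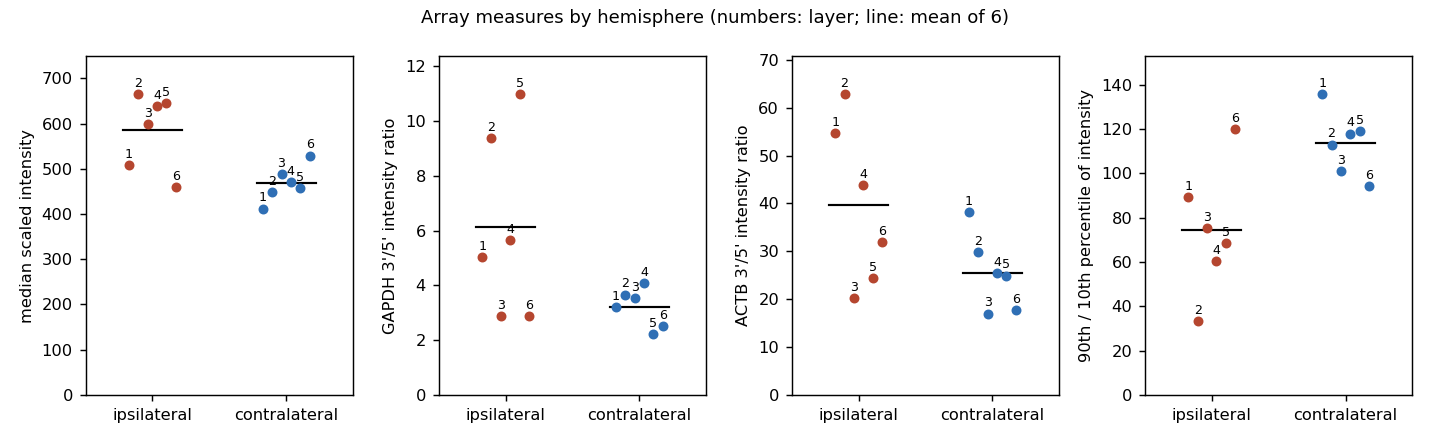
Median scaled intensity, GAPDH and ACTB 3'/5' intensity ratios, and the ratio of the 90th to the 10th intensity percentile, 1 point per array numbered by layer, with the mean of 6 arrays as a line. Ipsilateral layer 6 lies within the contralateral range in all 4 panels, and ipsilateral layers 2 and 5 have the highest GAPDH ratios, 9.38 and 11.

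The hemisphere difference ran with the level of the probe set. Those tested were split into 5 equal groups by mean intensity. In the dimmest group, at 483 to 725, the median log2 change was 0.30 and 76.4% of changes were positive. In the brightest group, from 4480 upward, the median was -0.13 and 29.3% were positive. Of the 11 probe sets that fell, 8 were in the brightest group. With quantile normalization, which gives every array the same distribution, the medians of the 5 groups lay between -0.03 and 0.02, and 3 probe sets (0.027%) passed, those of ATP6V0B, TRO and SPTLC2. Over all probe sets the median change was 0.07 as deposited and -0.01 with quantile normalization, while centring each array on its median moved it to -0.25. Directions of small changes therefore depended on the scaling.

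**Figure D4:**
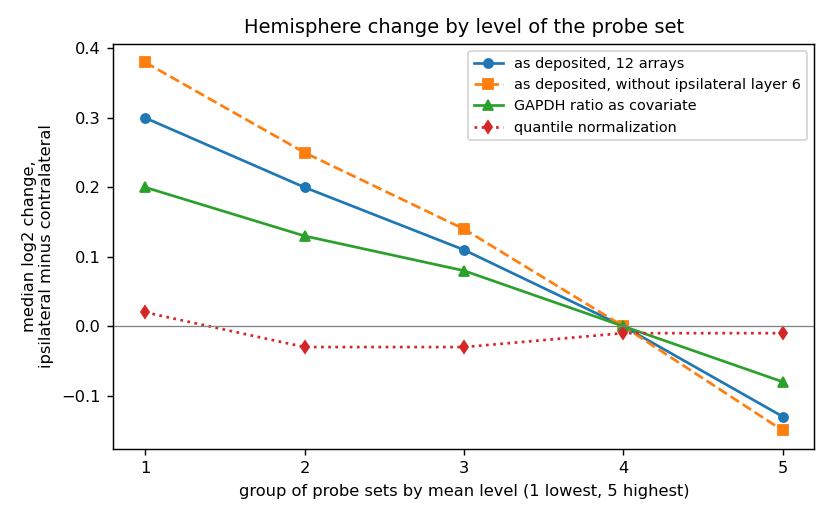
Median log2 change (ipsilateral minus contralateral) in 5 equal groups of the probe sets ordered by mean level (group 1 the dimmest), for 4 fits. As deposited the median goes from 0.30 in the dimmest group to -0.13 in the brightest, without ipsilateral layer 6 from 0.38 to -0.15, and with quantile normalization it stays between -0.03 and 0.02.

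Below the threshold, the higher genes of smallest p were mostly dim. SLC6A4, the serotonin transporter, lay between 733 and 1580 ipsilaterally (median 1280) and between 505 and 667 contralaterally (median 583), with no overlap. Its change was 1.05 ± 0.21 in 6 of 6 layers and did not pass (adjusted p = 0.0683, limma). MMP11, a secreted protease, had 1.29 ± 0.27, between 475 and 1520 ipsilaterally and between 224 and 471 contralaterally, again without overlap. SLC7A9, an amino acid transporter (0.92), MOSPD3 (0.82), SZRD1 (1.12), SFTPB, a lung surfactant protein (1.08), TAF2, a subunit of the general transcription factor TFIID (1.12), SH3BP4 (0.85) and PEX5, the peroxisomal import receptor (1.04), had adjusted p from 0.0683 to 0.0923. A second tested probe set of SZRD1 had 0.04, and 2 others of SFTPB had 0.19 and 0.03. After quantile normalization of all arrays none of these 9 had an adjusted p below 0.126. Without ipsilateral layer 6 all 9 passed as deposited (adjusted p from 0.00911 to 0.0315, limma). With quantile normalization as well, TAF2 (adjusted p = 0.081) and SH3BP4 (0.085) did not pass there, and the others did (0.0233 to 0.0391, limma).

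Leaving out ipsilateral layer 6, the array whose quality measures stood with the other hemisphere, raised the number of probe sets that passed from 12 to 847 (7.63% of those tested; 502 higher, 4.52%, and 345 lower, 3.11%). The higher ones were dim, with a median level of 1010, and the lower ones bright, with a median level of 4960. The split moved with the scaling: 50 higher (0.45%) and 156 lower (1.4%) passed with quantile normalization, 1.86% in all, and 60 higher (0.54%) and 2422 lower (21.8%) after centring, 22.4% in all. With the GAPDH ratio in this fit 0 passed (1407 at an unadjusted p under 0.05, limma), and with the ACTB ratio 11 passed, all lower. The part of RNA quality in these calls cannot be told apart from that of hemisphere, since the ratios were higher on the same side.

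Named without ipsilateral layer 6 were the 10 largest changes in each direction among those that passed and had the same sign in all 5 layers left. Among the 10 increases was SYT2, a calcium sensor of fast transmitter release. It lay between 672 and 1900 ipsilaterally (median 1400) and between 67.6 and 865 contralaterally (median 458). Layer 6 was the lowest ipsilateral array, at 672 the only one within the contralateral range. The change was 2.09 ± 0.36 without it (adjusted p = 0.0127, limma) and 1.76 ± 0.41 with it (adjusted p = 0.0926). The others were KIR2DS1, a receptor of natural killer cells (1.87), OPRPN, a peptide precursor of saliva and tears (1.73), RNF39 (1.55), RPS6KA6, a ribosomal S6 kinase (1.55), CASR, the calcium-sensing receptor (1.54), OR52A1, an odorant receptor (1.50), MMP11 (1.44), EIF1AX, a translation initiation factor (1.40), and MUC5AC, a mucin of airways and stomach (1.39). Of the 10, 2 also passed with quantile normalization, SYT2 and MMP11. The other probe sets of EIF1AX had -1.10 to -0.07 and that of RPS6KA6 had 0.38.

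The 10 decreases, which leave out SPTLC2 (-1.71) since it was not lower in layer 4, began with THADA. It lay between 107 and 683 ipsilaterally (median 298) and between 623 and 1190 contralaterally (median 904), and its change was -1.91 ± 0.35 (adjusted p = 0.0155, limma), while a second probe set had 0.26. PCMT1, an enzyme that repairs damaged aspartyl residues, fell by 1.48 on the log2 scale, and a brighter second probe set fell by 0.86 (adjusted p = 0.0125). Its brightest probe set had -0.24 and did not pass (adjusted p = 0.186, limma). TSPAN3, a tetraspanin, fell by 1.59 and on its second, brighter probe set by 0.46 (adjusted p = 0.0417). PSMC3, an ATPase of the proteasome, fell by 1.45, and PITRM1, a mitochondrial peptidase, had -1.46 and also passed. DLAT, a subunit of pyruvate dehydrogenase, fell by 1.50 on 1 probe set and had 0.39 and 0.26 on the others. FCHSD2 (-1.86), CPQ, a carboxypeptidase (-1.70), CSTF1, an RNA cleavage factor (-1.57), and TMEM127 (-1.36) completed the group. With quantile normalization 9 of these 10 were above the filter and all 9 passed. Of the 10, 9 had ipsilateral layer 6 as the highest ipsilateral array, and of the 10 increases 6 had it as the lowest. These counts follow partly from the choice, since genes with layer 6 near the contralateral values gain from leaving it out.

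Genes were also followed by lists, with 1 probe set per gene, beside the 7285 genes tested, of which 3075 (median change 0.06) had a negative change. Without ipsilateral layer 6, 4.69% of these genes passed as higher and 3.14% as lower, and with quantile normalization as well 0.494% and 1.29%. The median levels of the proteasome, chaperone, oxidative phosphorylation and glycolysis lists lay in the brightest of the 5 groups above. There 29.3% of changes were positive over all probe sets, with a median of -0.13 as deposited and -0.01 with quantile normalization. The lists were not tested against genes of like level. Proteasome genes, whose products degrade ubiquitinated proteins, were negative in 28 of 29 (median -0.28). PSMD2 was the one that passed. Without ipsilateral layer 6 a total of 8 fell, namely PSMD2 (-0.74), PSMA2 (-0.77), PSMC3 (-1.45), PSMB5 (-0.56), PSMA7 (-0.71), PSMB7 (-0.50), PSMC6 (-0.83) and PSMD1 (-0.57), and 4 of these 8 (PSMD2, PSMA2, PSMC3 and PSMC6) fell with quantile normalization too. A second probe set of PSMA2 had 0.03 in that fit. PSMB2 was the one positive member, at 0.20 ± 0.14. The list median was -0.19 with quantile normalization and -0.21 with the GAPDH ratio in the fit.

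Heat shock and chaperone genes were negative in 20 of 25 (median -0.30), and none passed over 12 arrays. Without ipsilateral layer 6, 5 fell: HSP90AB1, a cytosolic chaperone (-0.71), and CCT5 (-1.01), CCT2 (-0.68), CCT4 (-0.58) and CCT8 (-0.49), subunits of the chaperonin that folds actin and tubulin. Of the 5, only CCT5 passed there with quantile normalization (-1.10, adjusted p = 0.0473, limma). CRYAB, a small heat shock protein abundant in glia, had 0.33 ± 0.21. With quantile normalization the list median was -0.21.

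Nuclear genes of oxidative phosphorylation were negative in 50 of 63 (median -0.23), and ATP5PB passed. Without ipsilateral layer 6 a total of 6 fell: ATP5PB (-1.18), UQCRC1 (-0.71) and CYC1 (-0.85) of complex III, SDHA of complex II (-0.65), COX7C of cytochrome oxidase (-0.67) and NDUFB5 of complex I (-0.69). With quantile normalization 2 of these 6 passed there, ATP5PB and CYC1, and so did NDUFA5 of complex I (-0.99, adjusted p = 0.049, limma). UQCRC1 had 12400 to 35100 ipsilaterally and 25100 to 36200 contralaterally, which overlap. Glycolysis genes were negative in 16 of 20 (median -0.21), with PFKP lower over 12 arrays and PFKP (-1.07) and PFKM (-0.47) lower without ipsilateral layer 6, where PFKP alone passed with quantile normalization. PKM, a pyruvate kinase, had 0.57 ± 0.24 and the glucose transporter SLC2A1 0.34 ± 0.14, neither of which passed. The quantile-normalized medians of these lists were -0.14 and -0.12.

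Over 12 arrays, other lists of bright genes lay nearer to the median of all genes. Without ipsilateral layer 6 this did not hold for translation genes. Their median there was -0.26, against -0.20 for oxidative phosphorylation and -0.15 for glycolysis. Cytosolic ribosomal proteins had a median of -0.07 (34 of 51 negative, 0 passed in either direction with or without ipsilateral layer 6, and 8 at an unadjusted p under 0.05 over 12 arrays by limma), which was 0.07 with quantile normalization. Genes of translation initiation and elongation had -0.15 (21 of 27 negative), neuronal cytoskeleton genes -0.09 (21 of 32) and splicing factors -0.04 (33 of 56). In these 3 lists 9 genes fell and 3 rose without ipsilateral layer 6, among them EIF3H (-0.45), EIF5B (-0.76), the tubulin TUBA4A (-0.61), U2AF1 (-1.05) and HNRNPL (0.77). Other tested probe sets of EIF5B had -0.57 to 0.00 there, and none of them passed. With quantile normalization none of the 9 passed there (adjusted p from 0.0504 to 0.235, limma), and 2 of the 3 that rose did, HNRNPL and the kinesin heavy chain KIF5A. Synaptic vesicle and release genes were near 0 (median 0.04, 17 of 30 positive), with AMPH (-0.72) and SYNJ1 (-0.55), both of vesicle endocytosis, lower without ipsilateral layer 6. With quantile normalization AMPH passed there and SYNJ1 did not (adjusted p = 0.165, limma).

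**Figure D5:**
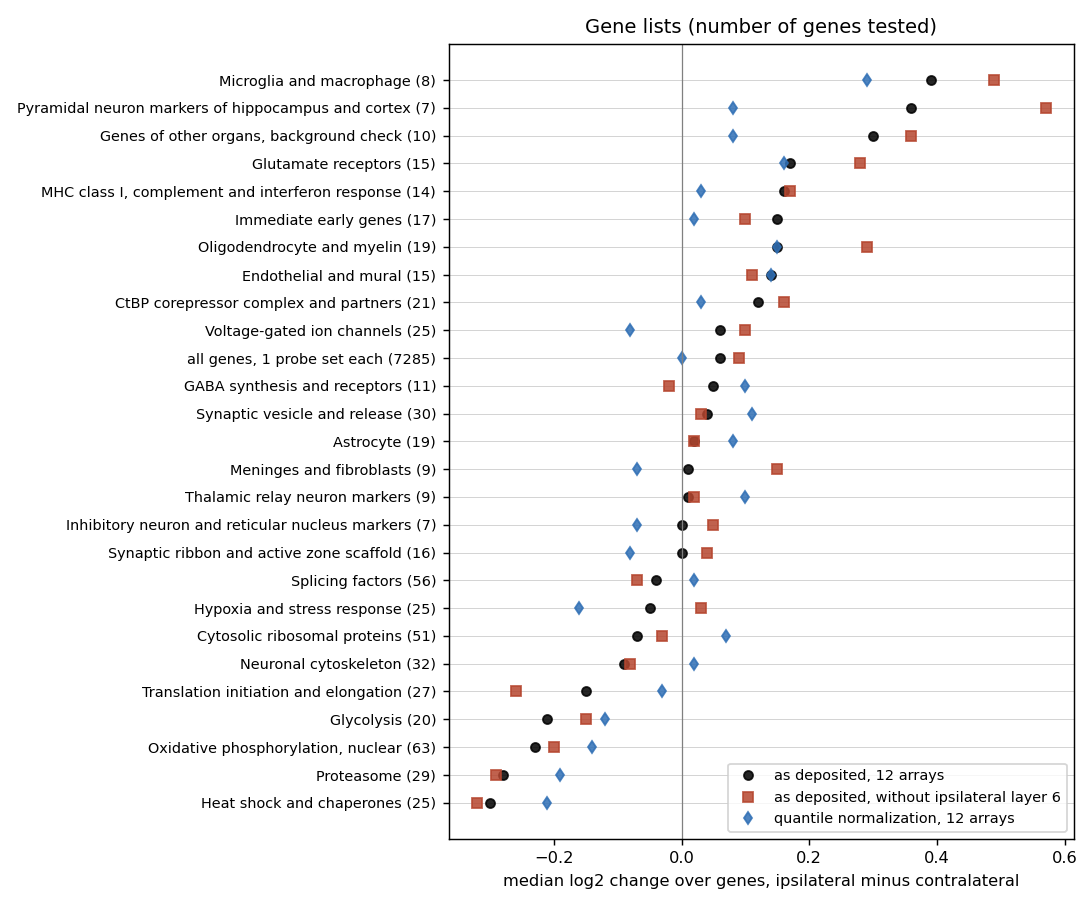
Median log2 change (ipsilateral minus contralateral) of each gene list with at least 7 genes tested, and of all genes, for the 12 arrays as deposited, without ipsilateral layer 6 and after quantile normalization, with the number of genes tested in parentheses. Heat shock and proteasome genes have the lowest medians, -0.30 and -0.28, and microglia markers the highest, 0.39.

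Partners of CTBP2 did not pass over 12 arrays. Of 21 genes of the CtBP corepressor complex, which includes histone deacetylases, demethylases and the zinc-finger proteins that recruit them, 16 were positive (median 0.12, and 0.03 with quantile normalization and -0.20 after centring). The 21 include CTBP2 itself, on its brightest probe set and not the one that passed (210835_s_at, 0.21), and CTBP1 (0.19), both positive. The nuclear receptor corepressor NRIP1 had 0.59 ± 0.16 in 6 of 6 layers (adjusted p = 0.113, limma) and -0.19 on a second probe set. HIPK2, a kinase that targets CtBP, had 0.70 ± 0.21 and rose without ipsilateral layer 6 (0.87, adjusted p = 0.0243), and HDAC2 fell there (-0.61, adjusted p = 0.0446). Genes of synaptic ribbons and active zones, CTBP2 again among them on 210835_s_at, were split, 8 of 16 positive with a median of 0.00. RIMBP2, which links calcium channels to release sites, had 0.53 ± 0.15 in 6 of 6 layers and rose without ipsilateral layer 6 (0.57, adjusted p = 0.0421), where the scaffolds BSN (-0.25) and PCLO (-0.20) did not pass. With quantile normalization HIPK2 (adjusted p = 0.085), HDAC2 (0.142) and RIMBP2 (0.0929) did not pass there, and LIN7A, an adaptor of presynaptic scaffolds, did (-0.81, adjusted p = 0.0443, limma).

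The defining markers of the tissue were present on every array and none passed between hemispheres. SLC17A6 lay between 26200 and 42600 ipsilaterally and between 24600 and 39600 contralaterally (change 0.01), and TCF7L2 between 59400 and 79000 and between 59700 and 71700 (change -0.00). The signs of both depended on the scaling, with -0.31 and -0.32 after centring. Other tested probe sets of TCF7L2 had -0.52 to 0.41, and none passed. The neurofilament NEFM (-0.11), the synaptic protein SNAP25 (-0.11 on its brighter probe set, -0.73 on the other), myelin basic protein MBP (0.07) and the astrocyte filament GFAP (0.28) did not pass. MBP and GFAP turned to -0.25 and -0.04 after centring. Summed over the relay markers the signal was 115000 to 132000 ipsilaterally and 118000 to 134000 contralaterally.

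Microglia, blood and other-organ genes had medians above that of all genes (0.06), as dim genes did. Astrocyte (0.02) and meningeal (0.01) genes did not, and the 2 choroid plexus genes tested were negative. All 8 microglia and macrophage genes tested were positive (median 0.39, and 0.29 with quantile normalization), and none passed over 12 arrays. CD74, a chaperone of antigen presentation, had 0.79 ± 0.27 in 6 of 6 layers and rose without ipsilateral layer 6 (0.94, adjusted p = 0.042, limma), as did FCER1G, an immunoreceptor subunit (0.65, adjusted p = 0.0391). Neither passed there with quantile normalization (adjusted p = 0.19 and 0.202). CX3CR1, the microglial chemokine receptor, had 0.35 ± 0.19 with 3 of 6 layers positive. The summed microglia signal was 12300 to 23500 ipsilaterally, lowest in layer 6, and 11800 to 15200 contralaterally. Genes of organs that the LGN does not hold (surfactant, keratins, pancreatic and liver proteins) had a median of 0.30 over 10 genes, and 0.08 with quantile normalization. After centring, which moved the median of all genes to -0.25, the medians were 0.07 for microglia and -0.02 for the genes of other organs. The part of dim signal in the microglia result was not tested. In bulk RNA, more cells of a type and more RNA per cell cannot be told apart.

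Oligodendrocyte and myelin genes were positive in 14 of 19 (median 0.15 as deposited and -0.17 after centring), with FA2H, a hydroxylase of myelin lipids, higher without ipsilateral layer 6 (0.73, adjusted p = 0.043, limma) and not there with quantile normalization (0.50, adjusted p = 0.176). Astrocyte genes had a median of 0.02 (SOX9 0.45, GLUL -0.45), and blood genes 0.42 over 3 genes, with HBB at 2580 to 5450 contralaterally and 3420 to 13100 ipsilaterally. Immediate early genes, which firing induces, were positive in 12 of 17 (median 0.15, and 0.02 with quantile normalization and -0.17 after centring). EGR4, a zinc-finger transcription factor, lay between 643 and 1470 ipsilaterally and between 327 and 599 contralaterally, with no overlap. Its change was 1.02 ± 0.26 (adjusted p = 0.104) and it rose without ipsilateral layer 6 (1.12, adjusted p = 0.0295), though not there with quantile normalization (0.77, adjusted p = 0.127).

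No gene of the remaining lists passed over 12 arrays. Glutamate receptors were positive in 12 of 15 (median 0.17 as deposited, -0.15 after centring), with the metabotropic receptor GRM4 higher without ipsilateral layer 6 (0.80, adjusted p = 0.0383, limma) and the kainate receptor subunit GRIK5 at 0.45 ± 0.22 over 12 arrays. GABA genes had a median of 0.05 over 11 genes, and voltage-gated channels had 0.06 (25 genes). ABAT, which breaks down GABA, had -0.45, but 0.25 on a second tested probe set and 1.12 on one below the filter. The receptor scaffold GPHN had -0.38. The potassium channel KCNA1 had 0.77 ± 0.24 in 6 of 6 layers and its auxiliary subunit KCNAB1 -0.51 ± 0.18. Markers of inhibitory neurons had a median of -0.00 over 7 genes, with PVALB, a calcium-binding protein, at -0.40 ± 0.16 and the GABA-synthesizing enzyme GAD2 at 0.25 ± 0.20. Of relay markers, RORA (0.59) was higher without ipsilateral layer 6 (0.74, adjusted p = 0.0421) and the T-type channel CACNA1G had -0.46 on one probe set and 0.32 on another. Markers of cortical and hippocampal pyramidal neurons had 0.36 over 7 genes and 0.08 with quantile normalization. Of these, the kinase CAMK2A was higher without ipsilateral layer 6 (0.71, adjusted p = 0.0466) and the transcription factor TBR1 had 0.67 ± 0.34 over 12 arrays.

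Vascular genes had a median of 0.14 over 15 genes, with the pericyte and smooth muscle receptor NOTCH3 at 0.94 ± 0.29 and higher without ipsilateral layer 6 (1.09, adjusted p = 0.0361, limma). Genes of meninges and fibroblasts had 0.01 over 9 genes, with the GABA transporter SLC6A13 higher without that layer (0.95, adjusted p = 0.0258) and fibronectin FN1 at 0.26 over 12 arrays. Other tested probe sets of FN1 had -0.22 to 0.01. MHC class I, complement and interferon genes had 0.16 over 14 genes, with the interferon-induced MX2 higher without that layer (0.86, adjusted p = 0.0493). Hypoxia and stress genes had -0.05 over 25 genes, with ASNS, which makes asparagine, lower (-0.66, adjusted p = 0.0217) and the pseudokinase TRIB3 higher (1.04, adjusted p = 0.043) without ipsilateral layer 6. With quantile normalization and without that layer, none of NOTCH3, SLC6A13, MX2, TRIB3, ASNS, GRM4, RORA and CAMK2A passed (adjusted p from 0.056 to 0.251). The 2 choroid plexus genes had -0.46 (FOLR1, 1.10 on a second probe set) and -0.25 (F5), and the 2 sex-linked transcripts 0.04 (XIST) and -0.14 (RPS4Y1).

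The difference between hemispheres was not shown to depend on deprivation or on cell class. For the interaction of hemisphere with deprivation, 0 probe sets passed by limma (730 at an unadjusted p under 0.05, smallest adjusted p = 0.344). This term equals input by the ipsilateral against the contralateral eye of each LGN, and not by the deprived against the other eye. For the interaction with cell class 0 passed (457 at an unadjusted p under 0.05, smallest adjusted p = 0.732). Without ipsilateral layer 2, the array of widest departure with a mean correlation of 0.868 with the others, 3 probe sets passed in the first, and without ipsilateral layer 1, 54 passed in the second. Fitted on deprived samples alone, 8 probe sets (0.072%) passed between hemispheres, 3 of them among the 12. On non-deprived samples alone 0 passed (752 at an unadjusted p under 0.05). Within each of these subsets the hemispheres shared no layer number. Hemisphere could therefore not be told apart there from layer number, or from input by the ipsilateral or contralateral eye. The deprived subset also held the ipsilateral arrays of highest GAPDH 3'/5' ratio, layer 5 (11) and layer 2 (9.38). In parvocellular layers alone 0 passed (1496 at an unadjusted p under 0.05), while the 12 kept their sign at 80.2% to 108% of their change.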

How the data were processed

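Total RNA from single LGN layers had been hybridised to a human Affymetrix array of 22283 probe sets, which macaque transcripts may bind less well where sequences differ. The authors deposited 1 intensity per probe set and array, on a linear scale. Trimmed by 2%, their means ranged from 1500.45 to 1500.6 over the arrays, so these deposited intensities had been scaled, and they were used as such. The software was not given in the sources used here. Correlations between arrays were 0.849 to 0.968, and none were duplicates.

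A floor at the 20th percentile of all values (110.8) was set before log2. Probe sets with a mean log2 value at or above the median, other than 68 controls, were tested (11105). limma 3.58.1 in R 4.3.3 (lmFit, eBayes with a trend, two-sided, Benjamini-Hochberg over all probe sets tested, threshold 0.05) fitted hemisphere, deprivation and cell class, with 8 residual degrees of freedom. The fit was tested on simulated data. Array measures were compared by a two-sided exact permutation test over 924 splits, whose smallest p is 0.0022. Precision is limited by the number of arrays.

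Of the probe sets, 19065 named 1 gene, and only these were named. Named were CTBP2 and CTBP1, up to 15 largest changes per direction that passed and agreed in sign over at least 5 layers, up to 10 of smallest p in a direction where fewer passed, up to 10 largest changes per direction that passed without ipsilateral layer 6 with 1 sign in the 5 layers left, the 2 members of smallest p in each of 29 gene lists, and tissue markers. Genes named outside this rule, among them JAK1, other list members and second probe sets, were chosen after their values were seen. The comparison, the lists and the alternatives were chosen with earlier results of these data known. Alternatives were 12 single arrays left out, other covariates, normalizations, filters and subsets. Of them 5, cyclic loess and 4 fits without ipsilateral layer 6, were added after the data were seen. Hemispheres share layer numbers, but same-numbered layers did not deviate together, so no block was used. No genome build was named, so no positions or sequences are given.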

Additional observations from a re-analysis of the deposited data

Results flagged for a closer look

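Among 230 groups of 6 arrays examined (1 gene or array measure in 1 hemisphere each), 17 had 1 array far from the other 5, with a gap to its nearest neighbour, as a share of the group's range, above Dixon's 95% critical value. Chance gives such a gap in about 1 in 20 groups. Of the 17, 8 were ipsilateral and 9 contralateral, and 0 were ipsilateral layer 6.

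For the genes that passed, CTBP2 (201218_at) was low in ipsilateral layer 1, at 1090 against 2260 to 2660. SPTLC2 (203128_at) was high in ipsilateral layer 4, at 973 against 200 to 253, and in contralateral layer 6, at 1570 against 864 to 1070. PSMD2 was low in contralateral layer 6, at 17200 against 21800 to 24900. CTBP2 on 210835_s_at was high in ipsilateral layer 5, at 6750 against 3840 to 4660.

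On the ipsilateral side, PEX5 was high in layer 5 (5550 against 1810 to 2660) and ABAT, which breaks down GABA, was low there (5860 against 13700 to 19300). In layer 1 NRIP1 was low (2120 against 3430 to 3960), as was the X-inactivation RNA XIST (14800 against 21300 to 24300). The share of values below the floor was 6.26% in layer 2 against 16.6% to 23.4%.

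On the contralateral side, layer 1 was low for SFTPB (374 against 733 to 1090) and OR52A1 (191 against 383 to 495), and its mean correlation with the other arrays was 0.915 against 0.929 to 0.934. Layer 2 was low for the stathmin STMN4 (2610 against 5940 to 8240) and CSTF1 (425 against 849 to 1030). MMP11 was low in layer 3 (224 against 377 to 471), and the peptide transporter TAP2 was low in layer 6 (97 against 353 to 734).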

How the results depend on the processing

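Leaving out single arrays gave 0 (contralateral layer 1, 1472 at an unadjusted p under 0.05 by limma) to 847 probe sets past the threshold (ipsilateral layer 6). Without ipsilateral layer 1 it was 11 and without contralateral layer 2 it was 10, and without any of the other 8 arrays it was 2 to 4. For the interactions these ranges were 0 to 3 (deprivation) and 0 to 54 (cell class). The count was 0 when ipsilateral layers 2 and 5, the 2 arrays of highest GAPDH ratio, were left out (1381 at an unadjusted p under 0.05). It was 0 too with a GAPDH ratio term (612), with an ACTB ratio term (1257), with no filter (3786), with no trend (2288), in parvocellular layers alone (1496), in non-deprived samples alone (752) and without ipsilateral layer 6 with the GAPDH ratio (1407). It was 2 with no cell class term, 3 with quantile normalization or cyclic loess, 7 with no deprivation term and 30 after median centring. With a term added for the side of the eye of input (layers 2, 3 and 5 against 1, 4 and 6) it was 6. With the layer number as a replicate block it was 8, of which 7 were among the 12. Same-numbered layers correlated by -0.19 to 0.16 in their deviations, and no array correlated best with its own number, so the block was no pairing. Deprived samples alone gave 8, the 75th percentile filter 18 and no floor 12. In deprived or non-deprived samples alone, hemisphere could not be told apart from layer number. Without ipsilateral layer 6, 206 passed with quantile normalization, 2482 after centring and 11 with the ACTB ratio. The median change over all probe sets, 0.069, was -0.013 with quantile normalization, -0.012 with cyclic loess, -0.249 after centring and -0.045 with the 75th percentile filter, and without ipsilateral layer 6 it was -0.011 with quantile normalization and -0.294 after centring.

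Sign changes were of probe sets that had not passed. After centring FN1 was at -0.05, CTBP2 at -0.07 (201220_x_at), -0.10 (210554_s_at) and -0.10 (210835_s_at), CTBP1 at -0.13 and -0.14, GFAP at -0.04, GAD2 at -0.06, MBP at -0.25, XIST at -0.28 and SLC17A6 at -0.31. After centring without ipsilateral layer 6, they were at -0.17 (FN1), -0.11, -0.18 and -0.19 (CTBP2), -0.19 and -0.19 (CTBP1), -0.13 (GFAP), -0.07 (GAD2), -0.29 (MBP), -0.44 (XIST) and -0.44 (SLC17A6, adjusted p = 0.049, limma), with SLC2A1 at -0.01. With the GAPDH ratio ABAT was at 0.08, and without ipsilateral layer 6 at 0.06, with TBR1 at -0.06, F5 at 0.10, XIST at -0.06 and SLC17A6 at -0.14. With the ACTB ratio CTBP1 (203392_s_at) was at -0.10, F5 at 0.11, RPS4Y1 at 0.20, XIST at -0.24, SLC17A6 at -0.13 and TCF7L2 at 0.03, and without ipsilateral layer 6 at -0.07, 0.21, 0.20, -0.31, -0.18 and 0.05. In deprived samples alone CTBP1 (203392_s_at) was at -0.01, RPS4Y1 at 0.06, XIST at -0.26, SLC17A6 at -0.02 and TCF7L2 at 0.14. In non-deprived samples alone NEFM was at 0.03 and MBP at -0.14, and in parvocellular layers alone CTBP1 (213980_s_at) was at 0.00 and SLC17A6 at -0.02. Without the 2 arrays of highest GAPDH ratio F5 was at 0.04 and SLC17A6 at -0.01. With cyclic loess SNAP25 was at 0.12, NEFM at 0.11 and TCF7L2 at 0.23, and with quantile normalization TCF7L2 was at 0.10, or 0.08 without ipsilateral layer 6. Over single arrays left out, F5 ran from -0.41 to 0.04, MBP from -0.03 to 0.14, SLC17A6 from -0.05 to 0.08, TCF7L2 from -0.06 to 0.03 and XIST from -0.10 to 0.11. The cause of these changes was not tested.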

Other observations

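Families around the genes that passed were looked at after those values had been seen, and are described only. Of 16 subunits of the vacuolar proton pump, 12 were negative (median -0.15). ATP6V0B passed over 12 arrays, and ATP6V1H, of the cytosolic part of the pump, had -0.55 ± 0.14 and fell without ipsilateral layer 6 (-0.59, adjusted p = 0.0302, limma). Kinesin chains were split: besides KLC1, the kinesin-associated KIFAP3 (-1.0), KIF2A (-0.62) and KIF3C (-0.47) fell without that layer, while KIF5A (0.65) and KIF13A (0.81) rose. Of 28 genes of the Ran cycle and nuclear transport receptors, 13 were negative (median 0.01), with RAN and RANBP6 (-1.09) lower and IPO4 (0.81) higher without ipsilateral layer 6. Subunits of the TRiC chaperonin were negative in 7 of 8 (median -0.43, and -0.27 with quantile normalization), and 4 of them fell without that layer, as named above. With quantile normalization and without that layer, ATP6V0B, KLC1, KIFAP3, KIF5A, RAN, RANBP6 and CCT5 passed, and ATP6V1H, KIF2A, KIF3C, KIF13A, IPO4, CCT2, CCT4 and CCT8 did not (adjusted p from 0.105 to 0.268, limma). Genes of ceramide and sphingolipid synthesis had a median of 0.13 (8 of 12 positive).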
